A study of Mus musculus with 13 samples.

Results

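The 9 genes described here carry the adrenergic signal in heart muscle: the receptor genes Adrb1, Adra1a and Adra1b, the G protein genes Gnas and Gnai2, the adenylyl cyclase genes Adcy5 and Adcy6, and the phosphodiesterase genes Pde3a and Pde4d. They were taken by symbol from gene-level read counts of 53278 symbols, and all 9 were among the 15690 genes with enough reads to test. RNA came from whole hearts of 13 male wild-type C57Bl6 mice that had surgery at 12 weeks of age and were killed at 17 weeks. The 4 groups were IR edit (n = 4), which had ischaemia and reperfusion (IR, a temporary stop of the blood flow to heart muscle) and received a working base-editing system for CaMKIIδ; IR virus (n = 3), which had IR and a control virus; IR (n = 3), which had IR and no injection; and Sham (n = 3), which had sham surgery and no injection. CaMKIIδ is a protein kinase that calcium activates in heart muscle, and a base editor converts a chosen letter of a gene without cutting both strands. The labels name no batch, dose, kind of virus, promoter or share of edited cells, so the groups compare treatments and not cells known to be edited.

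Noradrenaline and adrenaline act on the heart through these genes. The beta-1 receptor couples to the stimulatory G protein, which activates adenylyl cyclase. The enzyme makes cyclic AMP (cAMP), and cAMP activates protein kinase A, which raises the force and rate of contraction. Inhibitory G proteins restrain the cyclase and phosphodiesterases break cAMP down. Alpha-1 receptors couple to a different G protein and act through phospholipase C, inositol trisphosphate and protein kinase C.

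Total counts per library ran from 20634820 to 27265276. Of these, 29.7% (IR edit heart 4) to 38.5% (Sham heart 3) came from the mitochondrial genome. On the first principal component, which held 27.5% of the variance, IR edit hearts 2 and 4 lay apart at -34.0 and -45.1, against -10.2 to 26.5 for the other 11 hearts. The heart label was borne out by the cardiomyocyte markers: 10 of 10 were detected in every library, with a summed level of 41003 to 49454 CPM (read counts set to equal library sizes by TMM) in IR edit, 45953 to 49360 in IR virus, 43185 to 45274 in IR and 45069 to 50412 in Sham. Camk2d, the gene of the edited kinase, ran from 210 to 248 CPM in IR edit, 197 to 233 in IR virus, 235 to 245 in IR and 199 to 280.0 in Sham, and passed in none of the 7 comparisons; its counts do not tell whether its letters were edited. In bulk hearts, fewer cells of a type and less RNA per cell cannot be told apart. No label ties the hearts of a group to separate litters or days, so a p-value measures the spread between these hearts, which may be partly technical.

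The 250 bases before the start of transcription are shown for 2 members and for 1 gene that cAMP induces, to set their sequences side by side. The transcription factor CREB, which protein kinase A activates, is known to bind TGACG, the half-site of the cAMP response element. The windows below are from RefSeq (GRCm38.p6), read 5′ to 3′ on the strand of the gene, with TGACG or its reverse complement CGTCA in capitals. Adrb1 (chr19:56721867-56722116, plus strand) and Adcy5 (chr16:35154614-35154863, plus strand) are members with a single window in the table, and Nr4a1 (chr15:101266596-101266845, plus strand) is the cAMP-responsive gene with the smallest p in IR edit against Sham.
Adrb1: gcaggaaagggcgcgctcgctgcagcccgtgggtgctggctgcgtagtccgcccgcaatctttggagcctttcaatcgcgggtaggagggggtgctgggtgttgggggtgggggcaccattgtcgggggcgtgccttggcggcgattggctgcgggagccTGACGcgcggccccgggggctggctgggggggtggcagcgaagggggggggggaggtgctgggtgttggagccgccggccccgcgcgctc
Adcy5: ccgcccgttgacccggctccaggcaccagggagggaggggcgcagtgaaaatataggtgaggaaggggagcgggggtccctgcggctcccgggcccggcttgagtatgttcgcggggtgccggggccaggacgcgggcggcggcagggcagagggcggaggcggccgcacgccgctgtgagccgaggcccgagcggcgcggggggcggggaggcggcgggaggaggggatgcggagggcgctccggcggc
Nr4a1: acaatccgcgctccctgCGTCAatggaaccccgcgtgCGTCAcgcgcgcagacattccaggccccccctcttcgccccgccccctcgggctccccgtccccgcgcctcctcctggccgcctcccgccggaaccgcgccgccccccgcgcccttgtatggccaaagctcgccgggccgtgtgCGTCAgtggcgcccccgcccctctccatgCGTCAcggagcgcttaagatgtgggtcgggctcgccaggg
The Adrb1 window held 1 half-site, 90 bases before the start. The Adcy5 window held none, and the Nr4a1 window held 4, the farthest 233 and the nearest 40 bases before the start. A half-site stood in 17.8% of all 32851 windows of the table. Of the 9 windows of 5 members (Adrb1, Adra1b, Adcy5, Gnas and Pde4d), 4 held one: the Adrb1 window and 3 Gnas windows, 2 of which overlap and hold the same site, so that 2 of the 5 members had a half-site. Of the 11 windows of 10 genes on a list of 13 genes of cAMP-responsive transcription, 7 held one. That list holds genes that cAMP induces and also factors that act on them, such as Creb1 and Crebbp. The full element, TGACGTCA, stood in 1.55% of all windows and in 0 windows of the members and of that list. Adra1a, Adcy6, Gnai2 and Pde3a had no window in the table. These matches describe letters and say nothing of binding.

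Per length of exon, the members spanned a wide range of levels. Gnai2 was highest, at 34.5 ± 2.82 CPM per kb (mean ± SD over all 13 hearts). Adcy6 followed at 20.1 ± 3.12 CPM per kb, then Pde3a at 12.3 ± 1.78 and Adcy5 at 9.13 ± 1.30. The receptor genes and Pde4d stood lower: Adra1b at 4.83 ± 1.02 CPM per kb, Adrb1 at 3.92 ± 0.507, Pde4d at 2.88 ± 0.363 and Adra1a at 2.67 ± 0.706. Gnas was last, at 0.408 ± 0.0502 CPM per kb, but its counts are uncertain, because genes on the opposite strand share 22.0% of its exon bases. Single hearts of neighbours in this order overlapped, except that every heart had more Gnai2 than any had Adcy6, more Adcy5 than any had Adra1b, and more Adra1a than any had Gnas. The length counts every annotated exon of a gene, so a gene with many alternative exons, such as Pde4d, reads low. Within a gene, Adra1a varied most over the hearts, with a highest level 2.93 times its lowest, and Gnai2 least, at 1.36 times.

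**Figure D1:**
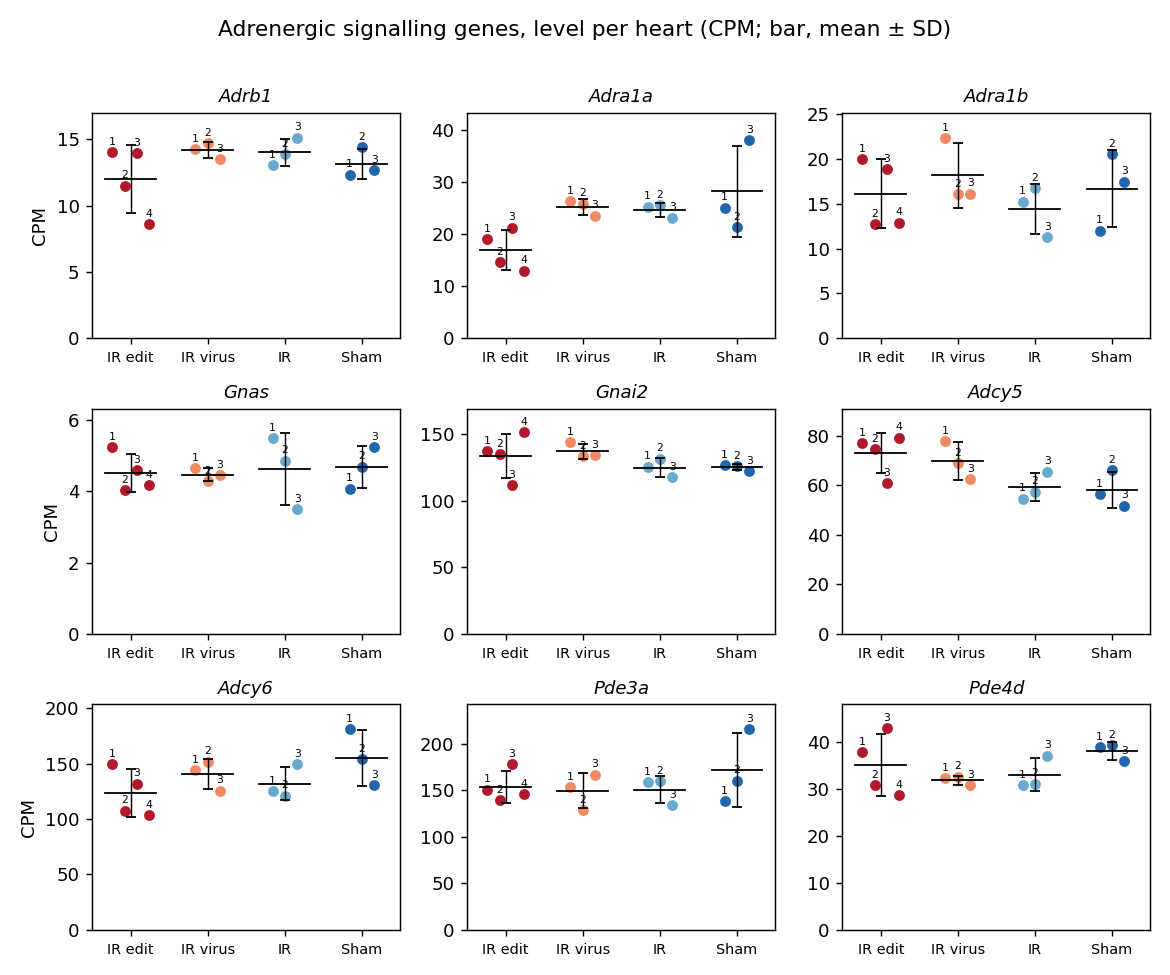
Level of each of the 9 genes (CPM, read counts set to equal library sizes by TMM, axis from 0) in every heart of IR edit (n = 4), IR virus, IR and Sham (n = 3 each); points are hearts with their number, bars are mean ± SD. The 4 IR edit hearts lie lowest for Adra1a, between 13.03 and 21.3 CPM, while the groups overlap for most other genes.

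Adra1a was the single member that passed the test, and it was lower in IR edit than in Sham. Adra1a encodes the alpha-1A receptor, which couples to phospholipase C; it lies on chromosome 14 (66635251 to 66771168, plus strand, mm10). Its level was 19.1, 14.7, 21.3 and 13.03 CPM in the IR edit hearts, 26.5, 25.9 and 23.6 in the IR virus hearts, 25.3, 25.7 and 23.2 in the IR hearts and 25.1, 21.4 and 38.2 in the Sham hearts. Every IR edit heart was below every heart of the other groups, by a thin margin to Sham heart 2. The mean was 17.0 ± 3.83 CPM in IR edit (SD, n = 4), 25.3 ± 1.51 in IR virus (n = 3), 24.7 ± 1.32 in IR (n = 3) and 28.3 ± 8.79 in Sham (n = 3).

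The log2 fold change of Adra1a in IR edit against Sham was -0.73 ± 0.18 (SE; 95% interval -1.11 to -0.35; adjusted p = 0.0227, edgeR's quasi-likelihood test with Benjamini-Hochberg adjustment over all genes tested). Of all genes tested, 8.01% passed in this comparison, 3.4% lower in IR edit, so 1 of 9 members stands near the share over all genes; 3 members (Adra1a, Adcy5 and Adcy6) had an unadjusted p under 0.05, as 23.6% of all genes had. All IR edit hearts were below all Sham hearts for 8.18% of all genes, below all IR virus hearts for 7.07% and below all IR hearts for 6.85%. The log2 fold change of Adra1a was -0.57 ± 0.18 in IR edit against IR virus (adjusted p = 0.125) and -0.54 ± 0.18 in IR edit against IR (adjusted p = 0.165), neither past the threshold; without Sham heart 3 the first was -0.57 and passed (adjusted p = 0.0482). Without Sham heart 3, which had the highest level, the value against Sham was -0.45 (adjusted p = 0.109). The call was also lost without IR edit heart 2 (-0.67, adjusted p = 0.0764), without IR edit heart 4 (-0.62, adjusted p = 0.0665) and with IR edit hearts 1 and 3 only (-0.48, adjusted p = 0.300). Markers of pericytes and smooth muscle, cells that also express alpha-1 receptors, summed to 491 to 688 CPM in IR edit, 779 to 821 in IR virus, 756 to 806 in IR and 879 to 908 in Sham, with 9 of 9 detected in every library. Most of that sum is Abcc9, a channel subunit that heart muscle also expresses, with 279 to 481 CPM in IR edit, 537 to 555 in IR virus, 530 to 571 in IR and 648 to 683 in Sham. Of the 9 markers, 2 passed the test as lower in IR edit against Sham and 3 had positive log2 fold changes; Notch3, for one, ran from 29.0 to 34.7 CPM in IR edit and from 23.4 to 30.8 in Sham. The part of these cells in the Adra1a values was not tested.

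The other receptor genes overlapped between groups. Adrb1, the main beta receptor of heart muscle (chromosome 19, 56722199 to 56733113, plus strand), had 14.0, 11.5, 14.0 and 8.62 CPM in IR edit, 14.3, 14.7 and 13.5 in IR virus, 13.1, 13.9 and 15.1 in IR and 12.3, 14.4 and 12.7 in Sham. IR edit hearts 2 and 4 were the lowest of all 13, and the other hearts lay between 12.3 and 15.1. Adrb1 had a log2 fold change of -0.13 ± 0.14 in IR edit against Sham (95% interval -0.42 to 0.16; adjusted p = 0.622) and -0.24 ± 0.14 in IR edit against IR virus (95% interval -0.53 to 0.053; adjusted p = 0.429). For injury without editing, IR and IR virus pooled against Sham, it was 0.10 ± 0.13 (95% interval -0.17 to 0.37; adjusted p = 0.756). Adra1b, the alpha-1B receptor (chromosome 11, 43774606 to 43901210, minus strand), averaged 16.1 ± 3.84 CPM in IR edit, 18.2 ± 3.58 in IR virus, 14.4 ± 2.79 in IR and 16.7 ± 4.30 in Sham. Its hearts ran from 12.8 to 20.0 CPM in IR edit and from 12.0 to 20.5 in Sham, so these groups covered nearly the same range (log2 fold change -0.042 ± 0.21, 95% interval -0.48 to 0.40).

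The G protein genes did not pass in any comparison. Gnai2, which encodes the alpha subunit of an inhibitory G protein (chromosome 9, 107614125 to 107635367, minus strand), had 137, 135, 112 and 152 CPM in IR edit, 144, 134 and 134 in IR virus, 126, 132 and 118 in IR and 127, 126 and 122 in Sham. The IR virus hearts stood above every IR heart and every Sham heart, while IR edit held both the highest and the lowest heart of all. Groups did not overlap for 21.3% of all genes in IR virus against Sham and for 12% in IR virus against IR. Gnai2 had a log2 fold change of 0.13 ± 0.093 in IR virus against Sham (95% interval -0.064 to 0.33; adjusted p = 0.499) and 0.098 ± 0.087 in IR edit against Sham (95% interval -0.088 to 0.28; adjusted p = 0.546).

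Gnas encodes the alpha subunit of the stimulatory G protein (chromosome 2, 174284320 to 174346744, plus strand). It was listed at 81 to 141 reads per library, and its level averaged 4.51 ± 0.540 CPM in IR edit, 4.47 ± 0.187 in IR virus, 4.62 ± 1.02 in IR and 4.67 ± 0.586 in Sham. Between IR edit and Sham the log2 fold change was -0.045 ± 0.16 (95% interval -0.38 to 0.29). These counts are uncertain, because genes on the opposite strand share 22.0% of the exon bases of Gnas in GENCODE M21. Most of that is Gm20721, which shares 80.4% to 85.4% of the bases of the 3 short Gnas transcripts that start between 174330006 and 174330097. Gm20721 itself was listed at 1 to 6 reads per library. How reads on shared bases were counted is not given in the sources used here, and its part in the low Gnas counts was not tested.

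Adcy5 and Adcy6, the main adenylyl cyclases of heart muscle, differed in sign in IR edit against Sham, and neither passed the test. Adcy5 (chromosome 16, 35154877 to 35305738, plus strand) had 76.9, 74.7, 61.0 and 79.2 CPM in IR edit, 77.7, 68.8 and 62.4 in IR virus, 54.6, 57.4 and 65.5 in IR and 56.3, 66.2 and 51.8 in Sham. IR edit hearts 1, 2 and 4 and IR virus heart 1 were the 4 highest, and IR edit heart 3 lay within the Sham range. As a log2 fold change, the difference was 0.33 ± 0.11 in IR edit against Sham (95% interval 0.094 to 0.56; adjusted p = 0.0791), 0.30 ± 0.11 in IR edit against IR (adjusted p = 0.213) and 0.067 ± 0.11 in IR edit against IR virus (adjusted p = 0.810). Without IR edit heart 3 the value against Sham was 0.40 and passed (adjusted p = 0.0159). In IR virus against Sham it was 0.26 ± 0.12 (adjusted p = 0.308).

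Adcy6 (chromosome 15, 98589973 to 98610076, minus strand) had 150, 108, 132 and 104 CPM in IR edit, 144, 152 and 126 in IR virus, 126, 121 and 149 in IR and 181, 154 and 131 in Sham. IR edit hearts 2 and 4 were the lowest of all 13 and Sham heart 1 the highest, with the groups overlapping between. Between IR edit and Sham the log2 fold change was -0.33 ± 0.13 (95% interval -0.62 to -0.046; adjusted p = 0.144). An antisense gene shares 8.92% of the exon bases of Adcy6 and was listed at 0 reads in all 13 libraries.

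The ratio of Adcy5 reads to Adcy6 reads within a library does not depend on the scaling between libraries. It was 0.513, 0.693, 0.462 and 0.764 in the IR edit hearts, 0.540, 0.453 and 0.496 in the IR virus hearts, 0.435, 0.474 and 0.439 in the IR hearts and 0.311, 0.430 and 0.396 in the Sham hearts. Each of the 10 hearts with IR had a higher ratio than each Sham heart, by a thin margin between IR heart 1 and Sham heart 2. The ratio of Adra1a to Adra1b reads was 0.955, 1.15, 1.13 and 1.01 in IR edit, 1.19, 1.62 and 1.46 in IR virus, 1.66, 1.54 and 2.05 in IR and 2.09, 1.05 and 2.19 in Sham. The IR edit hearts lay below every IR virus and IR heart, and Sham heart 2 lay among them. Both ratios were chosen after the values were seen and are given with no test.

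**Figure D2:**
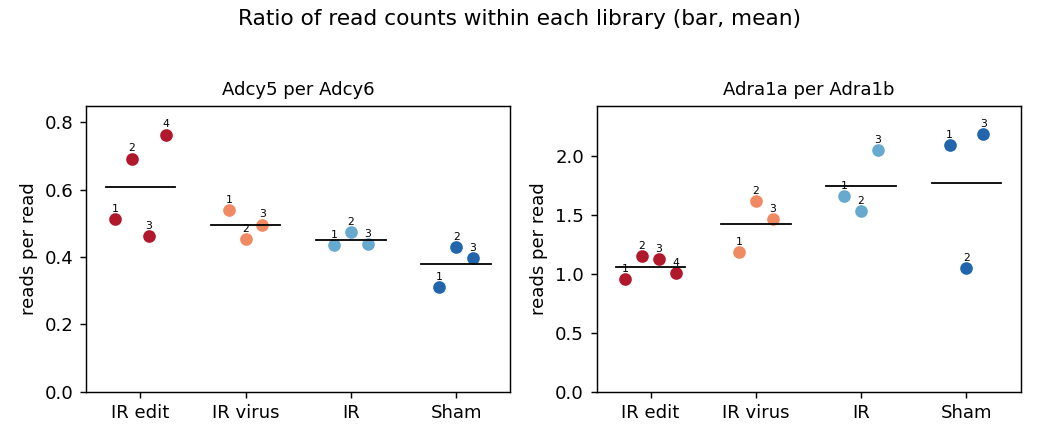
Ratio of read counts within each library (reads per read, axis from 0), for Adcy5 per Adcy6 on the left and Adra1a per Adra1b on the right; points are hearts with their number, bars are group means. The Adcy5 ratio averages 0.608 in IR edit, 0.496 in IR virus, 0.449 in IR and 0.379 in Sham.

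The phosphodiesterase genes did not pass in any comparison. Pde4d, one of the cAMP-specific enzymes (chromosome 13, 108449948 to 109953461, plus strand), had 37.8, 30.8, 42.9 and 28.7 CPM in IR edit, 32.2, 32.6 and 30.7 in IR virus, 30.9, 31.1 and 37.1 in IR and 38.8, 39.4 and 36.0 in Sham. The IR virus hearts were all below the Sham hearts, as held for 10.3% of all genes. IR edit hearts 1 and 3 stood with Sham and hearts 2 and 4 below it. Pde4d had a log2 fold change of -0.26 ± 0.13 in IR virus against Sham (95% interval -0.52 to 0.010; adjusted p = 0.343), -0.23 ± 0.11 in IR and IR virus pooled against Sham (95% interval -0.46 to -0.0013; adjusted p = 0.356) and -0.12 ± 0.12 in IR edit against Sham (adjusted p = 0.586). Pde3a, an enzyme that cyclic GMP inhibits (chromosome 6, 141249269 to 141507448, plus strand), had 151, 140, 178 and 146 CPM in IR edit, 153, 129 and 167 in IR virus, 159, 160 and 134 in IR and 138, 160 and 216 in Sham. Sham heart 3 was the highest, as it was for Adra1a, and the other 12 hearts lay between 129 and 178. The log2 fold change of Pde3a in IR edit against Sham was -0.16 ± 0.14 (95% interval -0.45 to 0.13). An antisense gene listed at 20 to 45 reads shares 5.82% of its exon bases.

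Injury without editing moved no member past the threshold. In IR against Sham 0 of 9 passed, against 0.0127% of all genes, and 0 had an unadjusted p under 0.05, as 8.33% of all genes did. In IR virus against Sham 0 of 9 passed, against 0.0127% of all genes, with 1 at an unadjusted p under 0.05 (Adcy5), as 15.4% of all genes were. With IR and IR virus pooled against Sham 0 of 9 passed, against 0.0191% of all genes, with 1 at an unadjusted p under 0.05 (Pde4d), as 14% of all genes were. The Wald test of DESeq2 also called 0 members in each of the 3, beside 48 of 17009, 191 of 14620 and 231 of 16412 genes. With so few calls over all genes, these counts place no member apart from the rest. Without IR edit heart 3, which is in none of these groups but shares the fit, 251 genes passed in the pooled comparison, and still 0 members. The intervals for IR and IR virus pooled against Sham still limit the sizes: the widest, that of Adra1b, ran from -0.44 to 0.37, that of Adra1a from -0.52 to 0.17, and the narrowest, that of Gnai2, from -0.11 to 0.24.

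Between the injured groups, 0 of 9 members passed in IR edit against IR virus, where 2.02% of all genes did, and 1 had an unadjusted p under 0.05 (Adra1a), as 15.2% of all genes had. Against IR, 0 of 9 passed in IR edit, beside 1.42% of all genes, and 2 had an unadjusted p under 0.05 (Adra1a and Adcy5), as 14.5% of all genes had. In IR virus against IR 0 of 9 passed, against 0% of all genes, and 0 members had an unadjusted p under 0.05, as 3.84% of all genes did. DESeq2's Wald test called 0 members in these 3 comparisons, beside 495 of 15816, 427 of 16412 and 0 of 31961 genes. In IR edit against Sham it called 2 members (Adra1a and Adcy5), beside 1607 of 14620 genes. The 3 comparisons of IR edit share its 4 libraries and are not independent. The median log2 fold change of the members in IR edit against Sham was -0.12, with 2 positive and 7 negative values, beside -0.0015 over all genes tested.

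**Figure D3:**
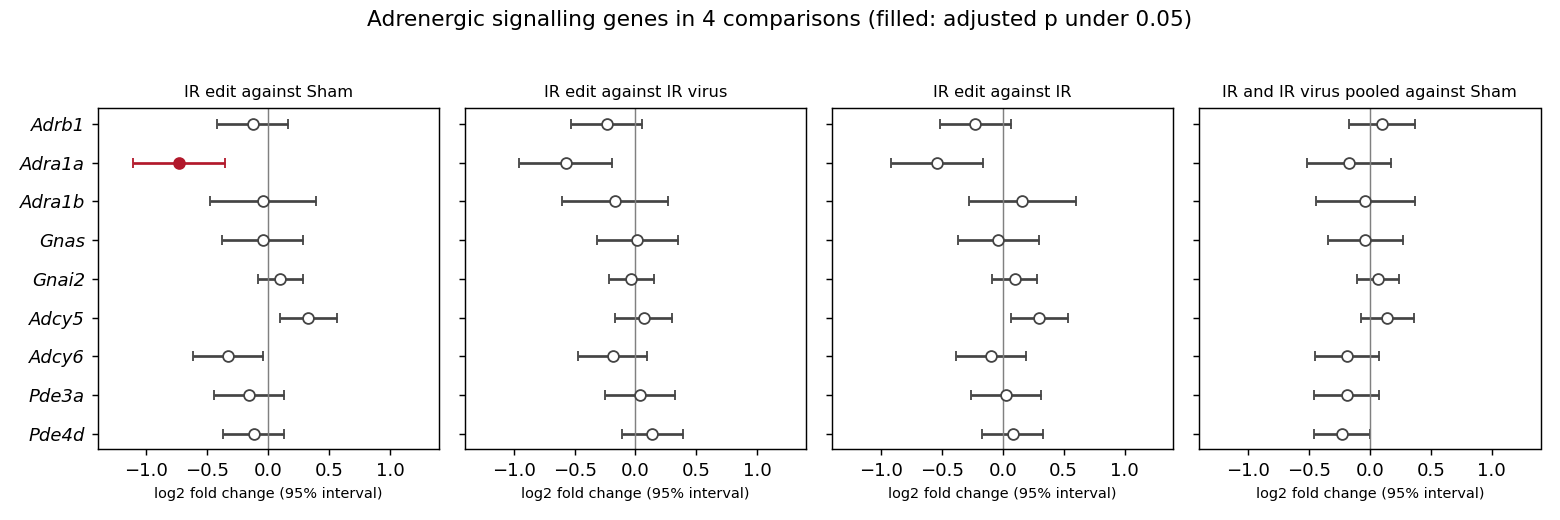
Log2 fold change of each of the 9 genes with its 95% interval (edgeR's quasi-likelihood fit of all 13 libraries), in 4 comparisons: IR edit against Sham, against IR virus and against IR, and IR and IR virus pooled against Sham. Filled points passed at an adjusted p of 0.05, and a line at 0 marks no difference; the interval of Adra1a in IR edit against Sham, -1.11 to -0.35, is that of the single call among the members.

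The rest of the pathway was described with 9 lists of 119 other genes, of which 112 were tested. The lists were chosen with earlier results of these data known, so their counts are a description and no test of the pathway. In IR edit against Sham 18 of 112 passed, all 18 higher in IR edit and 0 lower, beside 4.61% of all genes higher and 3.4% lower. Among the 18 is Pnmt, which had enough reads to test only through its IR edit libraries. The median log2 fold change over the 112 was 0.079. Against IR virus 7 passed, beside 0.962% of all genes higher in IR edit, and against IR 5 passed, beside 0.784%; all 7 and all 5 were higher in IR edit. In IR against Sham, in IR virus against Sham, in both pooled against Sham and in IR virus against IR, edgeR called 0 of 112, and 14, 19, 19 and 2 had an unadjusted p under 0.05. DESeq2's Wald test called 2 of them in IR virus against Sham, 2 in both pooled against Sham, 0 in IR against Sham and 0 in IR virus against IR. Over all genes it called 191 of 14620, 231 of 16412, 48 of 17009 and 0 of 31961, in the same order. With IR edit hearts 1 and 3 only, 8 passed in IR edit against Sham. As a measure for the groups described below as not overlapping, all IR edit hearts were above all Sham hearts for 8.22% of all genes, above all IR virus hearts for 6.83% and above all IR hearts for 5.97%.

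**Figure D4:**
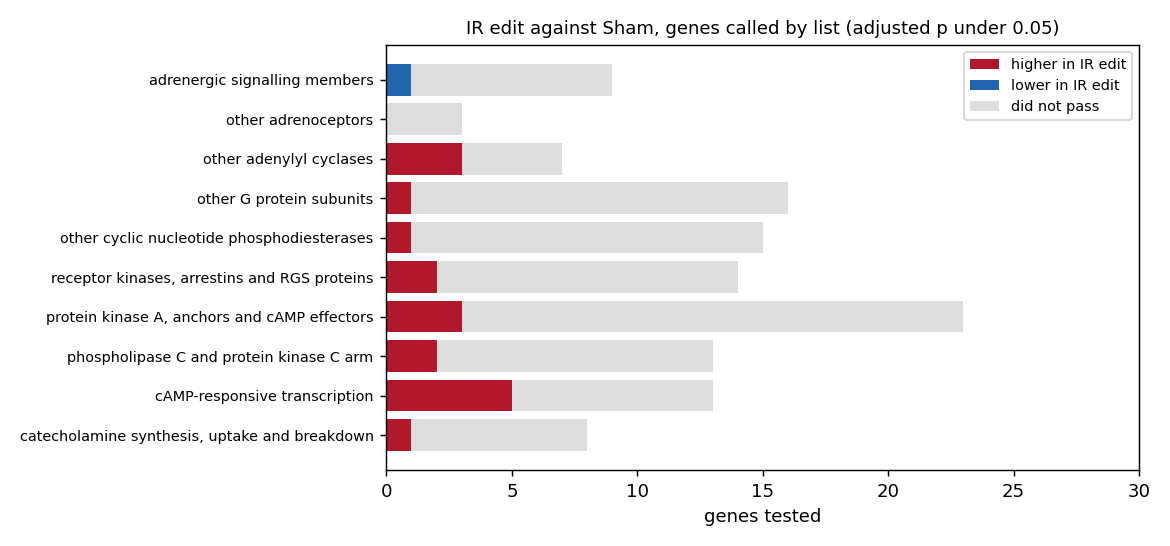
Number of tested genes of each list (bar length) in IR edit against Sham, split into genes higher in IR edit, genes lower in IR edit and genes that did not pass edgeR's quasi-likelihood test at an adjusted p of 0.05. The adenylyl cyclase list holds 3 higher genes of 7 tested and the cAMP-responsive list 5 of 13, and the single lower gene is Adra1a among the 9 members.

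Of the other adenylyl cyclases, 3 of 7 tested rose in IR edit against Sham and 0 fell, and with IR edit hearts 1 and 3 only 1 of those 3 calls, Adcy1, was kept. Adcy1, a cyclase that calcium and calmodulin stimulate and that is known mainly from the nervous system, had 18.7, 24.3, 22.5 and 20.8 CPM in IR edit, 10.9, 11.7 and 10.5 in IR virus, 11.0, 9.21 and 7.84 in IR and 7.44, 9.13 and 8.99 in Sham. Every IR edit heart was above every other heart, hearts 1 and 3 included. The log2 fold change of Adcy1 was 1.34 ± 0.12 in IR edit against Sham (adjusted p = 5.39e-05), 0.97 ± 0.12 in IR edit against IR virus (adjusted p = 0.000672) and 1.21 ± 0.12 in IR edit against IR (adjusted p = 9.82e-05). Adcy8, also stimulated by calcium, was low, at 30 to 62 reads in IR edit libraries, 14 to 18 in IR virus, 14 to 24 in IR and 11 to 25 in Sham. Its log2 fold change was 1.20 ± 0.30 in IR edit against Sham (adjusted p = 0.0272) and 1.5 ± 0.31 in IR edit against IR virus (adjusted p = 0.0235).

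The third cyclase, Adcy7, which is abundant in blood cells, had 24.1, 41.5, 19.0 and 48.9 CPM in IR edit, 26.5, 17.2 and 23.7 in IR virus, 23.0, 24.1 and 19.0 in IR and 15.9, 14.5 and 11.2 in Sham. IR edit hearts 2 and 4 were far above hearts 1 and 3, which lay in the range of the other injured hearts. Its log2 fold change was 1.26 ± 0.27 in IR edit against Sham (adjusted p = 0.0123), and 0.63 with IR edit hearts 1 and 3 only (adjusted p = 0.144). Without Sham heart 3 it was 1.13 (adjusted p = 0.0521). For Adcy8 the call against Sham was lost without IR edit heart 2 (adjusted p = 0.0648), IR edit heart 4 (0.0883), Sham heart 1 (0.103) or Sham heart 3 (0.0529), and with IR edit hearts 1 and 3 only (0.316). Its call against IR virus was lost without IR edit heart 2 (adjusted p = 0.0528), IR edit heart 4 (0.0597) or IR virus heart 1 (0.117), 2 (0.0997) or 3 (0.0659), and with IR edit hearts 1 and 3 only (0.190). Macrophage markers summed to 222 to 313 CPM in IR edit and 198 to 304 in Sham, with 9 of 9 detected in every library. Fibroblast markers, with 10 of 10 detected in every library, summed to 2314, 2663, 1901 and 3091 CPM in the IR edit hearts, 2270 to 2927 in IR virus, 2035 to 2769 in IR and 1684 to 1786 in Sham. Among them 5 of 10 passed as higher in IR edit against Sham, and within IR edit hearts 2 and 4 were again the highest, as they were for Adcy7, Gnao1 and Grk5. The part of these cells in the pathway calls was not tested.

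The list for cAMP-responsive transcription holds genes that cAMP is known to induce and also factors that act on them, such as Creb1 and Crebbp. In IR edit against Sham it held the 3 largest log2 fold changes among the pathway genes (Nr4a1, Nr4a3 and Sik1). Of its 13 genes, 5 rose and 0 fell. Nr4a1, a nuclear receptor and immediate early gene with the half-sites shown above, had 31.2, 24.3, 38.4 and 53.0 CPM in IR edit, 4.10, 2.98 and 3.07 in IR virus, 3.03, 4.35 and 6.11 in IR and 3.06, 3.19 and 2.89 in Sham. Sik1, a kinase that cAMP induces, had 59.6, 38.5, 70.8 and 66.8 CPM in IR edit, 17.3, 15.0 and 14.7 in IR virus, 13.2, 14.6 and 17.2 in IR and 19.7, 12.96 and 13.1 in Sham. Both separated all 4 IR edit hearts from all 9 others, and in both heart 2 was the lowest of the 4. Nr4a3, a second nuclear receptor of the family, ran from 9.53 to 27.1 CPM in IR edit, 1.67 to 2.61 in IR virus, 2.0 to 5.42 in IR and 1.72 to 2.45 in Sham.

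The log2 fold change of Nr4a1 was 3.44 ± 0.26 in IR edit against IR virus (adjusted p = 1.04e-05) and 3.03 ± 0.26 in IR edit against IR (adjusted p = 2.28e-05). Sik1 rose by 1.95 ± 0.19 against Sham (adjusted p = 7.93e-05), by 1.91 ± 0.19 against IR virus (adjusted p = 0.000101) and by 1.98 ± 0.20 against IR (adjusted p = 7.93e-05). For Nr4a3 the values were 2.91 ± 0.41 against Sham (adjusted p = 0.00123), 2.98 ± 0.41 against IR virus (adjusted p = 0.00165) and 2.34 ± 0.39 against IR (adjusted p = 0.00674). The last of these was lost without IR heart 1 (2.12, adjusted p = 0.0618) or IR heart 2 (2.09, adjusted p = 0.0603). Nr4a2, the remaining nuclear receptor of the family, rose by 1.41 ± 0.30 against Sham (adjusted p = 0.0125). The fifth call was Crem, a transcription factor of the cAMP response, at 0.61 ± 0.16 (adjusted p = 0.0313); it was named after its value was seen, and genes on the opposite strand share 8.01% of its exon bases. Calcium and growth factor signals are also known to induce the Nr4a genes.

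**Figure D5:**
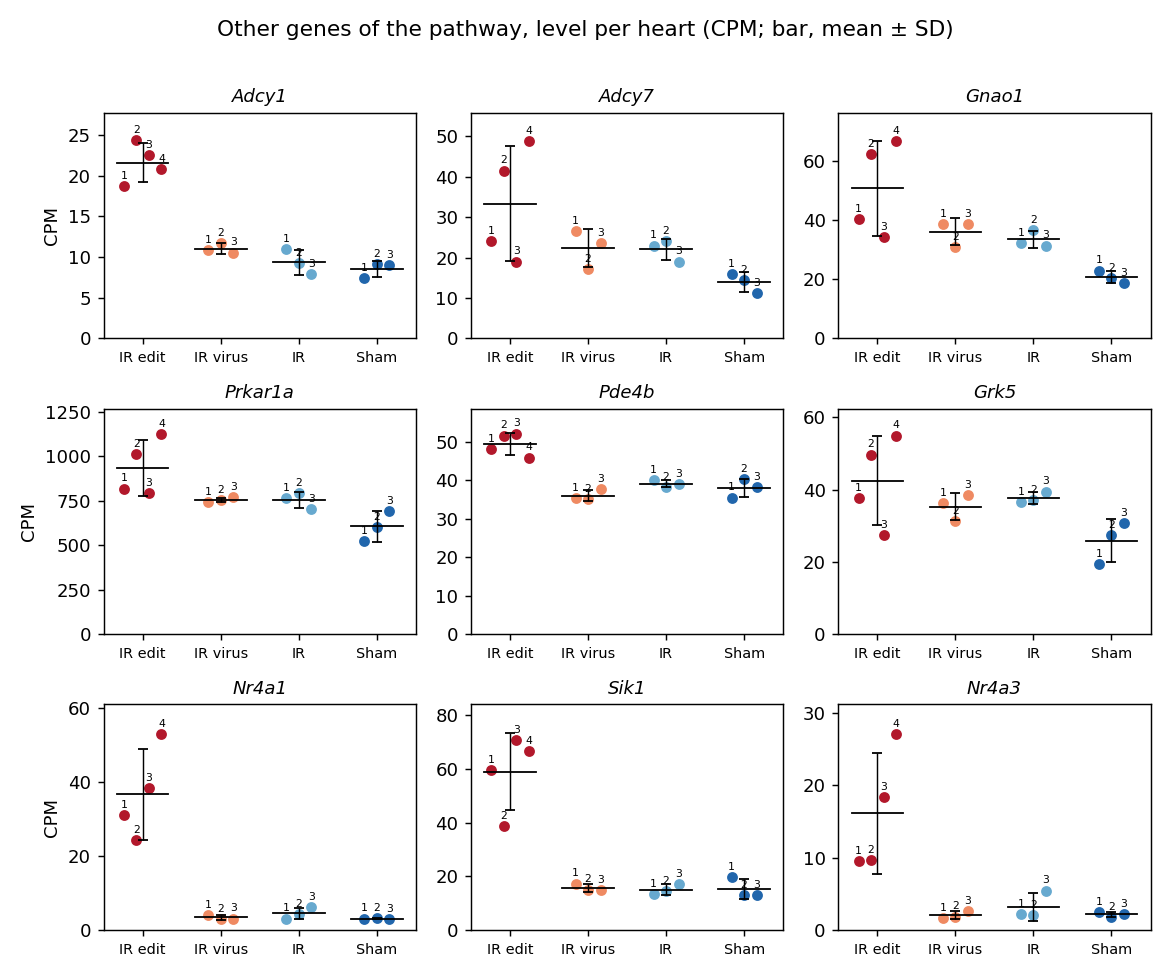
Level of 9 other pathway genes (CPM, axis from 0) in every heart of IR edit (n = 4), IR virus, IR and Sham (n = 3 each); points are hearts with their number, bars are mean ± SD. For Adcy1, Pde4b, Nr4a1, Sik1 and Nr4a3 all 4 IR edit hearts lie above the 9 others, while for Adcy7, Gnao1, Prkar1a and Grk5 hearts 2 and 4 lie above hearts 1 and 3.

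Among the other phosphodiesterases 1 of 15 rose and 0 fell. It was Pde4b, a cAMP-specific enzyme of the same family as Pde4d, with 48.1, 51.6, 52.1 and 45.9 CPM in IR edit, 35.3, 35.1 and 37.6 in IR virus, 40.0, 38.3 and 39.0 in IR and 35.5, 40.2 and 38.3 in Sham. Each IR edit heart was above each of the 9 others. As a log2 fold change, the difference was 0.38 ± 0.070 in IR edit against Sham (adjusted p = 0.00602), 0.46 ± 0.070 in IR edit against IR virus (adjusted p = 0.00364) and 0.34 ± 0.070 in IR edit against IR (adjusted p = 0.0266). The call against IR was lost without IR edit heart 2 (adjusted p = 0.0957) or IR heart 1 (0.0942), 2 (0.140) or 3 (0.0680). That call was also lost with IR edit hearts 1 and 3 only (adjusted p = 0.0946) and with only the groups compared (0.0564). With only the groups compared, the call against Sham was lost too (adjusted p = 0.0531).

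Of the other G protein subunits 1 of 16 rose and 0 fell. It was Gnao1, the alpha subunit of the G protein Go, with 40.1, 62.1, 34.1 and 66.6 CPM in IR edit, 38.7, 30.7 and 38.5 in IR virus, 32.3, 36.5 and 31.3 in IR and 22.8, 20.5 and 18.7 in Sham. The 10 hearts with IR were all above the Sham hearts, and IR edit hearts 2 and 4 were the highest. The IR and IR virus hearts together were above all Sham hearts for 4.79% of all genes. Gnao1 had a log2 fold change in IR edit against Sham of 1.29 ± 0.19 (adjusted p = 0.00174). Genes on the opposite strand share 2.57% of its exon bases.

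Of receptor kinases, arrestins and RGS proteins, which switch receptors and G proteins off, 2 of 14 rose in IR edit against Sham and 0 fell. Grk5, a kinase that phosphorylates active receptors, had 37.6, 49.7, 27.5 and 55.0 CPM in IR edit, 31.3 to 38.4 in IR virus, 36.5 to 39.4 in IR and 19.3, 27.5 and 30.8 in Sham, a log2 fold change of 0.72 ± 0.19 in IR edit against Sham (adjusted p = 0.0354). The IR virus and IR hearts were all above the Sham hearts, as held for 4.79% of all genes, while IR edit heart 3 was not. Arrb1, which encodes beta-arrestin 1, had 46.1, 45.2, 34.1 and 47.7 CPM in IR edit, 36.9 to 42.6 in IR virus, 31.7 to 35.6 in IR and 37.2, 31.6 and 28.3 in Sham, a log2 fold change of 0.42 ± 0.12 in IR edit against Sham (adjusted p = 0.0390). In both genes IR edit heart 3 lay within the Sham range. With IR edit hearts 1 and 3 only, the values were 0.34 for Grk5 (adjusted p = 0.488) and 0.31 for Arrb1 (adjusted p = 0.401). The Grk5 call was lost without IR edit heart 2 or 4, IR heart 1 or 2, or Sham heart 1 or 2 (adjusted p from 0.0507 to 0.132). The Arrb1 call was lost without IR edit heart 1, 2 or 4, IR virus heart 2 or 3, IR heart 1 or 2, or Sham heart 2 or 3 (adjusted p from 0.0505 to 0.139). Grk3, a second kinase of the family, rose in IR edit against IR virus, with 27.2, 25.9, 25.0 and 26.9 CPM in IR edit and 20.2, 19.9 and 17.5 in IR virus (log2 fold change 0.45 ± 0.089, adjusted p = 0.0164). That call was lost without any 1 of the IR virus hearts (adjusted p = 0.05002, 0.0550 and 0.0878 without heart 1, 2 and 3) and with IR edit hearts 1 and 3 only (0.101).

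Of protein kinase A, its anchors and other cAMP effectors, 3 of 23 rose in IR edit against Sham and 0 fell. Prkar1a, a regulatory subunit that holds the kinase inactive until cAMP binds, averaged 936 ± 158 CPM in IR edit, 754 ± 12.9 in IR virus, 754 ± 44.6 in IR and 605 ± 84.7 in Sham, a log2 fold change of 0.63 ± 0.12 in IR edit against Sham (adjusted p = 0.00723). Popdc3, a membrane protein of a family that binds cAMP, averaged 20.0 ± 2.30 CPM in IR edit, 16.3 ± 1.33 in IR virus, 17.0 ± 2.13 in IR and 13.9 ± 0.868 in Sham (log2 fold change 0.52 ± 0.11, adjusted p = 0.0107). Akap12, an anchor for the kinase, averaged 76.5 ± 8.35 CPM in IR edit, 65.0 ± 3.72 in IR virus, 64.6 ± 1.83 in IR and 58.3 ± 7.71 in Sham (log2 fold change 0.39 ± 0.096, adjusted p = 0.0228). For these 3 genes no IR edit heart overlapped a Sham heart, as held for 8.22% of all genes in this direction. The Akap12 call was lost without IR edit heart 4 (adjusted p = 0.0742), Sham heart 1 (0.0945) or Sham heart 3 (0.0676). With IR edit hearts 1 and 3 only, none of the 3 passed (adjusted p = 0.0753 for Prkar1a, 0.156 for Popdc3 and 0.169 for Akap12).

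On the phospholipase C and protein kinase C arm, which the alpha-1 receptors drive, 2 of 13 rose in IR edit against Sham and 0 fell. Prkca, the alpha isoform of protein kinase C, averaged 58.1 ± 6.85 CPM in IR edit, 47.3 ± 3.17 in IR virus, 49.0 ± 2.27 in IR and 43.6 ± 6.37 in Sham (log2 fold change 0.41 ± 0.11, adjusted p = 0.0281). Itpr1, a receptor for inositol trisphosphate that releases calcium, averaged 72.3 ± 3.73 CPM in IR edit, 68.8 ± 6.61 in IR virus, 67.1 ± 6.38 in IR and 57.9 ± 6.86 in Sham (log2 fold change 0.32 ± 0.095, adjusted p = 0.0493). For neither gene did an IR edit heart overlap a Sham heart, against the same 8.22% of all genes. The Prkca call was lost without IR edit heart 2 (adjusted p = 0.0927), IR edit heart 4 (0.0883) or Sham heart 1 (0.111). The Itpr1 call was lost without IR edit heart 1, 2 or 4, IR virus heart 1 or 3, IR heart 1 or 2, or Sham heart 1 or 2 (adjusted p from 0.0597 to 0.189). With IR edit hearts 1 and 3 only, neither passed (adjusted p = 0.393 for Prkca and 0.415 for Itpr1).

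The remaining lists held at most 1 call each in IR edit against Sham. Of the other adrenoceptors 3 of 6 had enough reads to test and 0 passed in IR edit against Sham, with 0 at an unadjusted p under 0.05. The smallest p among them was that of Adra2b, an alpha-2 receptor, with 10 to 16 reads in IR edit libraries and 16 to 25 in Sham (log2 fold change -0.60 ± 0.29, adjusted p = 0.230). Of the genes for catecholamine synthesis, uptake and breakdown 5 of 8 had an unadjusted p under 0.05 in IR edit against Sham. Over all genes that share was 23.6%. In IR, IR virus and both pooled against Sham the count was 3 of 8 each, beside 8.33%, 15.4% and 14% of all genes. Of the 8 genes, 1 rose past the threshold in IR edit against Sham and 0 fell. It was Pnmt, the enzyme that makes adrenaline from noradrenaline, at 6 to 21 reads in IR edit libraries, 5 to 8 in IR virus, 3 to 7 in IR and 3 to 7 in Sham. The groups overlapped, and the log2 fold change of 1.48 ± 0.44 sat at the threshold (adjusted p = 0.0498). The Pnmt call was lost without any 1 of the 9 hearts of IR virus, IR and Sham (adjusted p from 0.0516 to 0.151).

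The genes most like each member over the 13 hearts were found by Pearson's correlation of log2 CPM over about 9290 genes with a mean of at least 5 CPM, as a description with no test. Hearts of a group share their treatment, and IR edit hearts 2 and 4 lie apart, so genes that follow either will correlate. Adra1a was closest to Dixdc1 (r = 0.941) and Dsg2 (0.929), the gene of a desmosome protein of heart muscle. Adrb1 was closest to Rbpms2 (0.930) and Proser1 (0.919), and Adra1b to Hexim1 (0.852) and Thra (0.840), a thyroid hormone receptor gene. Adcy5 was closest to Plec (0.961), the gene of a cytoskeletal linker, and Gga1 (0.959), and Adcy6 to Gstm1 (0.959) and Wnk2 (0.951). Gnai2 was closest to Sbno2 (0.920) and Wdr46 (0.915), and Gnas to Ing5 (0.883) and Rpl31 (0.858). Pde4d was closest to Mrpl15 (0.928) and Rpl3l (0.916), and Pde3a to Zcchc11 (0.917) and Kmt5b (0.885). No member was among the closest genes of another.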

How the data were processed

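For each library the authors deposited whole-number counts of reads by gene symbol, with no normalization. HISAT2 (2.1.0), featureCounts (1.6.2), Trimmomatic (0.39), FastQC (0.11.8) and the build mm10 are named in the submitters' processing notes. Which annotation was counted, whether strand was used and how reads that fit several genes were treated is not stated in any source used here. Groups came from the sample titles. Of the 78 pairs of libraries, 0 held identical values.

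A single quasi-likelihood model of 13 libraries and 15690 genes was fitted in edgeR 4.0.16 (R 4.3.3) after TMM scaling and filterByExpr. It had 9 residual and 6.08 prior degrees of freedom, and its common coefficient of biological variation was 0.116. P-values were adjusted by Benjamini and Hochberg over all genes tested, with a threshold of 0.05. A standard error (SE) is the size of a log2 fold change over the root of its F statistic, and 95% intervals use the total degrees of freedom. CPM values are counts scaled by TMM library size; log2 CPM used a prior count of 2. Exon lengths, positions and overlaps came from GENCODE M21 (mm10), and a length is the union of a gene's exons. Windows before gene starts came from RefSeq, searched on both strands.

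The members and gene lists were chosen with earlier results of these data known. Every member was named; from each list, up to 4 genes that passed in a comparison, or the 1 with the smallest p. Alternatives were the size factors and Wald test of DESeq2 1.42.0, a replicate block, only the groups compared, each library left out, a minimum of 1 CPM in 3 libraries, no minimum, and, chosen after seeing the data, IR edit hearts 1 and 3 only.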

Additional observations from a re-analysis of the deposited data

How the results depend on the processing

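Correlations of the deviations of same-numbered hearts ran from -0.13 to 0.22, with 4 of 18 over 0.1. These values are low, but with 3 or 4 hearts a group they cannot decide whether the numbers pair the samples. With the number as a block, 0 members passed in IR edit against Sham, with Adra1a at -0.61 (adjusted p = 0.0675). Number 4 occurs only in IR edit, so the block also takes IR edit heart 4 out of every comparison of IR edit. With that heart left out and no block, Adra1a was -0.62 (adjusted p = 0.0665) and 550 genes passed in IR edit against Sham. With the block 590 genes passed in IR edit against Sham, against 1257 in the main fit. The block raised the calls from 2 to 174 in IR virus against Sham and from 3 to 181 in IR and IR virus pooled against Sham. The members called in IR edit against Sham were 3 with no filter (Adra1a, Adcy5 and Adcy6), 2 with DESeq2's Wald test, 0 with only the groups compared (246 genes called overall), 0 with IR edit hearts 1 and 3 only (158 overall), and 0 to 2 with 1 library left out. In IR edit against IR virus it was 1 with no filter and 0 to 1 with 1 library left out (1, Adra1a, without Sham heart 3), and in IR edit against IR 2 with no filter. The other 4 comparisons gave 0 under every setting. Pathway genes called in IR edit against Sham numbered 28 with no filter, 11 with the block, 6 with only the groups compared and 10 to 24 with 1 library left out. Against IR virus they numbered 20 with no filter and 11 with the Wald test, against 7, and in IR edit against IR 18 and 8, against 5, with 3 to 9 when 1 library was left out. Over all genes, the calls in IR edit against Sham were 2205 with no filter, 1607 with the Wald test and 478 to 2351 with 1 library left out, against 1257. Against IR virus they were 1018 with no filter, 495 with the Wald test, 159 with the block, 90 with IR edit hearts 1 and 3 only and 96 to 477 with 1 library left out, against 317. Against IR the same settings gave 1021, 427, 122, 78 and 59 to 489, against 223. Adcy1, Nr4a1 and Sik1 passed under every one of the 20 settings in the 3 comparisons of IR edit. The cause of these shifts was not tested.

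Of 63 pairs of member and comparison, 29 kept their direction under all settings and 34 did not. Under the block the log2 fold changes of opposite sign were Adrb1 0.0035 and Adra1b 0.047 in IR edit against Sham and Gnas 0.0030 in IR edit against IR. With IR edit hearts 1 and 3 only the log2 fold changes of opposite sign were Adrb1 0.091, Adra1b 0.23, Gnas 0.083, Gnai2 -0.0077 and Pde4d 0.084 in IR edit against Sham, Adra1b 0.099, Adcy5 -0.013 and Adcy6 0.0051 in IR edit against IR virus and Adcy6 0.096, Gnas 0.094 and Gnai2 -0.0057 in IR edit against IR. With 1 library left out, the values that changed sign ranged as follows. In IR edit against Sham, Adra1b -0.24 to 0.14, Gnas -0.14 to 0.044, Adrb1 -0.22 to 0.0026 and Pde3a -0.30 to 0.041. In IR edit against IR virus, Gnas -0.057 to 0.065, Gnai2 -0.092 to 0.043, Pde3a -0.058 to 0.12, Adra1b -0.28 to 0.0042 and Adcy5 -0.0068 to 0.15. In IR edit against IR, Gnas -0.20 to 0.11, Pde4d -0.022 to 0.18, Pde3a -0.051 to 0.075 and Adcy6 -0.20 to 0.00018. In IR virus against IR, Adrb1 -0.034 to 0.071, Pde3a -0.094 to 0.086, Gnas -0.21 to 0.094, Adra1a -0.0089 to 0.083 and Pde4d -0.098 to 0.040. In IR virus against Sham, Adra1b -0.072 to 0.31, Adra1a -0.32 to 0.12 and Gnas -0.16 to 0.025. In IR against Sham, Adcy5 -0.054 to 0.13, Gnas -0.16 to 0.15, Gnai2 -0.047 to 0.039, Adra1a -0.35 to 0.082 and Pde3a -0.33 to 0.0094. In IR and IR virus pooled against Sham, Adra1b -0.24 to 0.14, Gnas -0.14 to 0.050, Adra1a -0.34 to 0.099 and Pde3a -0.33 to 0.0046. Depth limits Gnas, at 81 to 141 reads, and the low pathway genes Adcy8, Pnmt and Adra2b.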
